A study of Mus musculus with 12 samples.

Results

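Granule cell progenitors of the cerebellar hemispheres that carried SmoM2 were compared with wild type progenitors of the same region at postnatal day 8. SmoM2 is an activated form of Smoothened, the membrane protein that passes on the hedgehog signal. The comparison took the 3 arrays titled as SmoM2 hemisphere and the 3 titled as wild type hemisphere, 6 of the 12 arrays of the series. The other 6 arrays are vermis progenitors of both genotypes, and they are used here to estimate the spread and to ask where the hemisphere differs. SmoM2 mice carried Atoh1-CreER on 1 chromosome together with R26LSL-SmoM2-YFP, an allele at the Rosa26 locus whose stop cassette is removed by Cre. Atoh1 control limits the tamoxifen-dependent Cre to the granule cell lineage and other Atoh1-expressing cells. SmoM2 mice received tamoxifen at postnatal day 2 at 200 µg per g, and the sources used here do not say whether wild type mice received it. Both genotypes had a mixed background that included C57BL/6 and Swiss Webster. Cells were isolated on a Percoll gradient, which separates by density and does not sort by a marker, and 5 mice were pooled for each array. The p-values therefore describe the spread between pools.

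Granule cell progenitors divide in the outer layer of the young cerebellum under Sonic hedgehog released by Purkinje cells. Without ligand, the receptor Ptch1 holds Smoothened inactive; with ligand, or with an activated Smoothened, Gli transcription factors turn on targets that include Gli1, Ptch1 and Hhip, and several of these act back on the pathway. Progenitors that leave the cycle switch on Neurod1 and adhesion and cytoskeletal genes of young neurons before they migrate inward, and unrestrained hedgehog signalling in these cells can give rise to medulloblastoma.

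Each value is a deposited log2 expression level of 1 probe set. A difference of 1 on this scale is a 2-fold change, differences are SmoM2 minus wild type, errors are limma's standard errors, and n is 3 arrays per group throughout. The lower quartile of the hemisphere arrays lay between 3.28 and 3.42 and the upper quartile between 6.90 and 7.08. Some array controls differed between the hemisphere groups: the dap control transcript read 7.77 to 9.50 on the wild type and 10.01 to 10.999 on the SmoM2 arrays. The difference between 3' and 5' Actb probe sets, which reads how intact and fully labelled the RNA was, came to 0.46 to 0.79 against 0.90 to 1.10. On the vermis arrays both measures overlapped between genotypes. There dap read 9.77 to 10.415 in wild type and 10.35 to 10.52 in SmoM2, and the Actb difference 0.88 to 0.90 and 0.89 to 1.07. Wild type hemisphere replicate 3 had the lowest dap and, at 6.98, the lowest bioB control. The part of these measures in the results was not tested. The 8 markers of the granule cell lineage averaged 10.37 to 10.62 on the wild type and 10.03 to 10.09 on the SmoM2 hemisphere arrays, near the top of the scale on each.

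Of 18193 genes tested, 2694 passed at an adjusted p under 0.05, which is 14.8% of them. Of all genes, 7.62% (1387) were higher and 7.18% (1307) were lower in SmoM2. The 3 arrays of one genotype lay wholly above the 3 of the other for 31.7% of genes. Leaving out wild type replicate 1 gave 4276 genes, and leaving out SmoM2 replicate 1 or 3 gave 1633 or 1704. At least 2-fold changes that passed numbered 268 up (1.47% of genes) and 137 down (0.753%), and 393 of these 405 also passed in each fit that left out 1 of the 6 hemisphere arrays. At least 4-fold changes were 49 up and 5 down, so the large changes were mostly rises. Over all genes the median difference was -0.05. Normalizing by quantiles once more gave 1076 higher and 1538 lower genes, so the balance between rises and falls among all calls has no settled direction. In a bulk sample, a changed share of cells of a type and a changed amount of RNA per cell cannot be told apart. This holds for each rise and each fall described here.

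Smo itself, the gene whose activated form was switched on, was read by 3 probe sets. On the brightest, Smo was at 9.41, 9.13 and 9.29 on the wild type arrays and at 9.84, 9.71 and 9.66 on the SmoM2 arrays, a rise of 0.46 ± 0.10 (adjusted p = 0.00852) without overlap between groups. The other Smo probe sets gave 0.61, also without overlap, and 0.28 with overlap near the bottom of the scale. The sources used here do not say whether any of them detects the transgene's mRNA, so this is a weak check of the labels. The pathway's feedback genes give a clearer reading. Hhip, which sits in the membrane and captures hedgehog ligand, was at 6.10, 6.45 and 5.45 on the wild type arrays and 8.68, 8.59 and 8.70 on the SmoM2 arrays. Its other 3 probe sets rose too, by 2.69 to 3.39. Ptch1 was at 10.50, 10.83 and 10.64 in wild type and 12.37, 12.38 and 12.30 in SmoM2, already among the brightest genes without SmoM2. Its dimmer probe sets differed by 0.64 and 0.11. Gli1, a transcription factor and target of the pathway, was at 7.15, 6.83 and 7.41 in wild type and 8.87, 8.88 and 8.69 in SmoM2.

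Of 11 measured hedgehog targets, 6 rose and 1 fell, with a median difference of 0.41. Hhip rose most (6.3-fold), followed by Ptch1 (3.23-fold, 1.69 ± 0.10), Gli1 (3.21-fold, 1.68 ± 0.14) and Ccnd1, the G1 cyclin through which the pathway drives division (2.58-fold, 1.37 ± 0.15). Bcl2, which protects cells from apoptosis, was at 6.81, 6.22 and 6.45 on the wild type arrays and 7.53, 7.64 and 7.65 on the SmoM2 arrays, a rise of 1.11 ± 0.16 (adjusted p = 0.000244). Wild type replicate 1 was the highest of its group for Bcl2, still below every SmoM2 array. Mycn, a progenitor growth regulator and target, was at 9.02, 9.03 and 9.46 in wild type and 9.67, 9.58 and 9.51 in SmoM2; its difference of 0.41 ± 0.14 had a 95% interval of 0.12 to 0.71 and missed the threshold (adjusted p = 0.0556), which it passed in 8 of 22 alternative fits. The member that fell was Igf2 (-0.60), named after its value was seen; it is also a meningeal marker, and the call ended without wild type replicate 3 or SmoM2 replicate 1.

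Of 25 genes that carry the signal from receptor to Gli factors, 7 rose and 1 fell (median 0.13); the fall was that of the ligand Dhh (-0.43), named after its value was seen, a call that ended in 12 of 22 alternative fits. The co-receptors that help ligand bind Ptch1 rose together. Gas1 was at 9.60, 9.29 and 10.09 in wild type and 10.63, 10.77 and 10.86 in SmoM2 (1.10 ± 0.17, adjusted p = 0.000712). Cdon rose by 0.82 ± 0.13 and Boc by 0.68 ± 0.10 (adjusted p = 0.000877 and 0.00044). Spop, an adaptor of the ubiquitin ligase that degrades Gli proteins, rose by 0.56 ± 0.11. Differences were smaller for Gli2, Gli3 and the inhibitor Sufu than for Gli1. Gli2, the main activator, rose by 0.49 ± 0.16 (adjusted p = 0.0471), a call that ended in 12 of 22 alternative fits. Gli3, mainly a repressor, differed by -0.26 (95% interval -0.58 to 0.06), and Sufu, which holds Gli proteins in the cytoplasm, by 0.33 (0.05 to 0.61). Of 33 genes of the primary cilium, the organelle in which Smoothened acts, 2 rose and 1 fell, a share of 9.09% that is below that of all genes. They were Tulp3, which ferries receptors into the cilium (0.97), the transport motor Kif3a (0.59) and Bbs4 (-0.40), the latter pair named after their values were seen. The Tulp3 call ended when its probe sets were averaged, the Kif3a call without wild type or SmoM2 replicate 3, and the Bbs4 call in 4 of 22 alternative fits. The rises in this list numbered 5 without wild type replicate 1 and 1 without wild type replicate 3.

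**Figure D1:**
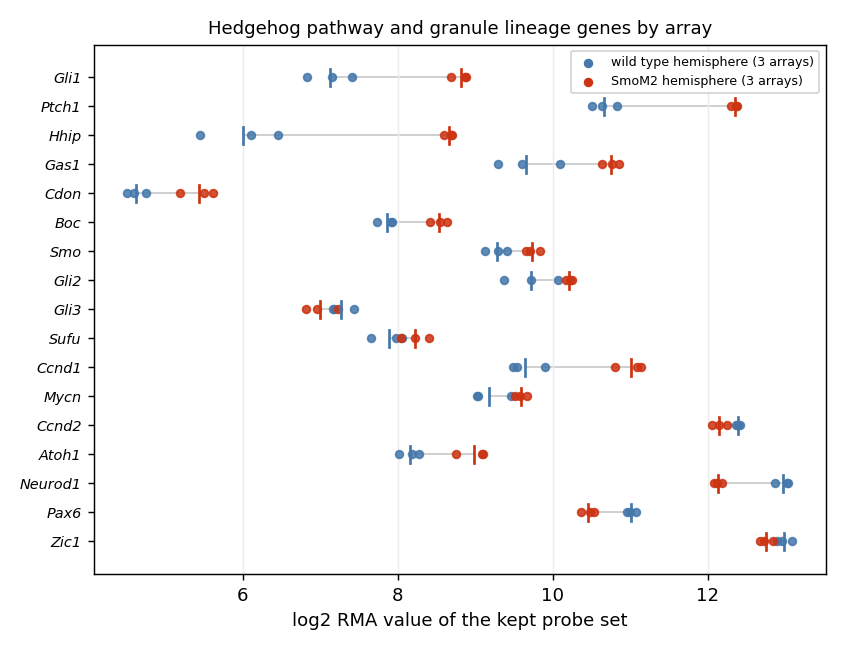
Log2 values of hedgehog pathway genes and some granule cell lineage genes on each hemisphere array, with wild type and SmoM2 arrays as separate points and group means as bars. Hhip, Ptch1 and Gli1 are at least 1.68 higher in SmoM2 without overlap, while Gli3 and Sufu differ little.

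Promoters were searched for TGGGTGGTC and its reverse complement GACCACCCA, the sequence bound by Gli proteins, in the 250 bases before each gene's RefSeq start. Of 14452 tested genes with an entry, 31 held it (0.215%), as did 1 of 209 genes that rose at least 2-fold and 1 of 111 that fell at least 2-fold. These promoters are shown because they are the matches among the large changes; capitals mark the motif, which stands in the same orientation in both.
Cltb: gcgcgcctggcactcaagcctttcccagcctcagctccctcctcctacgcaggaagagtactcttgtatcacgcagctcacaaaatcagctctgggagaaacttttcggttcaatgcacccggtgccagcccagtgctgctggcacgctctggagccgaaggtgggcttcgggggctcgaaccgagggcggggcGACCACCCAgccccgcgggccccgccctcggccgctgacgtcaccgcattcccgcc
Cacnb4: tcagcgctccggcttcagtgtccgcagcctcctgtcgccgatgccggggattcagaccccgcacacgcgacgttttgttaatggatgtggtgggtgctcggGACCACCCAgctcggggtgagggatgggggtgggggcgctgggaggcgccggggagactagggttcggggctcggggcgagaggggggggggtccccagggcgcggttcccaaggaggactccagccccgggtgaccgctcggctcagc
The Cltb window is chr13:54611374-54611623 (GRCm38.p6, minus strand), with the motif beginning 56 bases before the start, and the Cacnb4 window is chr2:52675860-52676109 (minus strand), with the motif beginning 149 bases before it. Cltb, a clathrin light chain of coated vesicles, was at 7.38, 7.36 and 7.99 in wild type and 8.75, 8.93 and 8.87 in SmoM2, a rise of 1.27 ± 0.15 (adjusted p = 6.11e-05). Cacnb4, a calcium channel subunit, was at 6.60, 6.72 and 6.46 in wild type and 5.40, 5.64 and 5.58 in SmoM2, a fall of 1.05 ± 0.14 (adjusted p = 0.000222). Of all genes that passed, whatever their size of change, 6 of 1123 higher ones (0.534%) and 2 of 1023 lower ones (0.196%) held the motif. The Ptch1 and Hhip windows hold no match, and Cltb was picked for its motif after its value was seen.

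The largest rise was that of Sowaha, an ankyrin repeat protein. Sowaha was at 2.39, 2.57 and 2.49 on the wild type arrays and 9.33, 9.19 and 9.33 on the SmoM2 arrays, a difference of 6.80 ± 0.14 (adjusted p = 1.13e-12). Its wild type level was under the lower quartile of each array, where differences are compressed, so the size has no exact meaning. Nptx1, a secreted pentraxin that gathers glutamate receptors at synapses, went from 4.13, 3.16 and 3.23 in wild type to 7.94, 8.23 and 8.65 in SmoM2 on its brightest probe set. The other Nptx1 probe set rose by 1.78, without overlap. Vip, a neuropeptide, went from 3.08, 3.91 and 3.14 in wild type to 6.82, 7.43 and 7.10 in SmoM2. The wild type means of Nptx1 and Vip, 3.50 and 3.38, were near the lower quartile, so the sizes of their rises are not exact either. Crym, which binds thyroid hormone in the cytoplasm, went from 4.02, 3.83 and 3.66 in wild type to 7.28, 7.32 and 7.76 in SmoM2. For each of these genes, on its brightest probe set, the groups lay more than 2 units apart, far beyond the spread within a group. Cbln4, a secreted organizer of synapses, rose by 3.60 ± 0.18, from a wild type mean that was also under the lower quartile of each array, so its size has the same limit. Sema3e, a repulsive guidance cue, rose by 3.34 ± 0.20, and Doc2b, a calcium sensor of vesicle release, by 3.14 ± 0.24.

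Other large rises started higher on the scale. Pdlim3, an actin-associated PDZ and LIM domain protein, went from 7.31, 6.80 and 7.02 in wild type to 10.21, 10.32 and 10.34 in SmoM2, a 9.51-fold rise. Septin8, a filament-forming GTPase, went from 6.94, 7.15 and 7.32 in wild type to 10.11, 10.14 and 10.11 in SmoM2. Rbp4, the carrier of retinol, went from 5.89, 5.87 and 5.33 in wild type to 8.70, 8.94 and 8.80 in SmoM2. Prmt8, a membrane-bound arginine methyltransferase of neurons, rose by 3.21 ± 0.21, and the secreted protein Crispld1 by 3.16 ± 0.18.

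The largest fall was that of Slc17a6, which loads glutamate into vesicles. Slc17a6 was at 8.89, 8.85 and 9.49 on the wild type arrays and 4.95, 5.98 and 5.35 on the SmoM2 arrays, a 12.6-fold fall (adjusted p = 6.98e-07). Igfbp5, a binding protein that modulates insulin-like growth factors, went from 10.34, 9.94 and 10.07 in wild type to 7.03, 7.51 and 7.28 in SmoM2. Its other probe set fell much less, with means of 7.70 in wild type and 6.97 in SmoM2 (-0.73, without overlap), so the size of this fall depends on the probe set. Dmrta1, a transcription factor, had group means of 6.24 and 3.78 and fell by 2.46 ± 0.19. All 3 genes had no overlap between genotypes, which was a condition for naming them. Eomes, a factor of unipolar brush cells, fell by 1.95 ± 0.20, the netrin receptor Unc5c fell by 1.70 ± 0.12 and the semaphorin Sema3d fell by 1.64 ± 0.18. Pgm1, which interconverts glucose phosphates, fell by 1.77 ± 0.13. Among genes with a wild type mean of at least 6, the other largest falls were those of A930009L07Rik (-2.51), Gprin3 (-1.96), Ppp2r2b (-1.70), Diras2 (-1.66) and the potassium channel Kcna1 (-1.64).

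**Figure D2:**
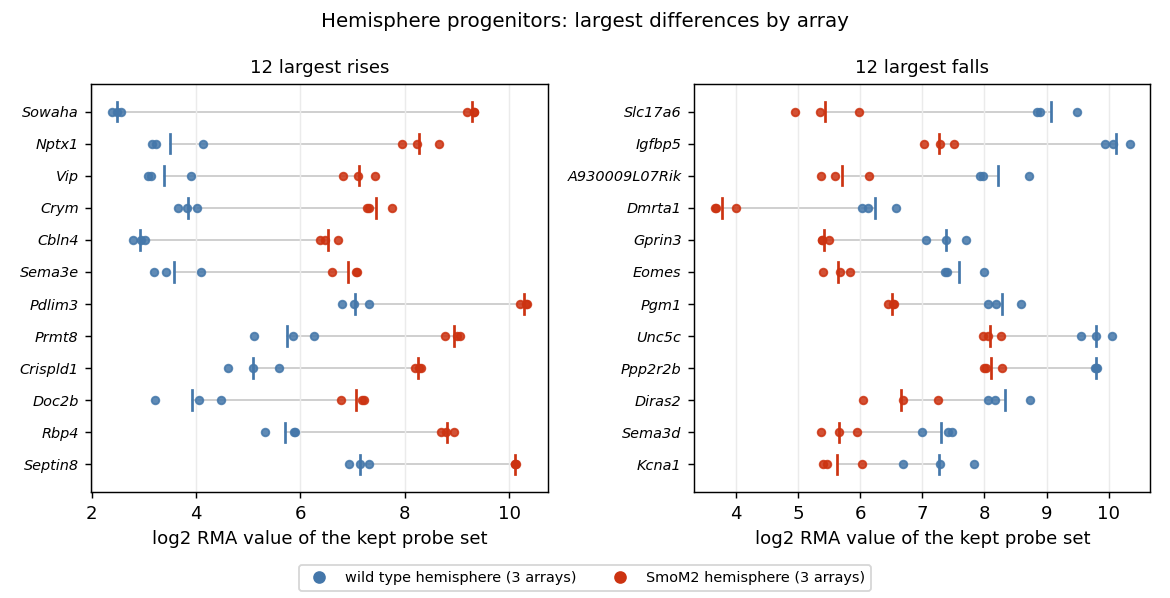
Log2 values on each hemisphere array for the 12 largest rises and 12 largest falls that held when any 1 array was left out, among genes with a mean of at least 6 in the higher group; points are arrays and short bars group means. The choice also required that the 3 wild type and 3 SmoM2 arrays of a gene do not overlap.

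Genes that set the pace of the cell cycle changed unevenly. Of 38 genes of G1 control, 12 rose and 3 fell (median 0.18). Cdk6, a kinase partner of D-type cyclins, was at 8.73, 8.77 and 8.75 in wild type and 10.66, 10.70 and 10.72 in SmoM2 (1.94 ± 0.09), and Myc, a growth regulator, at 6.48, 6.69 and 6.40 in wild type and 8.37, 8.13 and 8.19 in SmoM2 (1.71 ± 0.12). Ccnd1 was at 9.49, 9.54 and 9.90 in wild type and 11.09, 11.14 and 10.80 in SmoM2. For Ccnd1 wild type replicate 3 was the highest of its group and SmoM2 replicate 3 the lowest, without overlap. Ccnd3, another D-type cyclin, and Cdkn1c, a cyclin-dependent kinase inhibitor, rose by 0.70 ± 0.10 (a call that ended when its probe sets were averaged) and 0.81 ± 0.12, and Ccnd2 differed by -0.24 (adjusted p = 0.103). Tfdp2, a partner of E2F factors, fell by 0.94 ± 0.11. The count of rises was 6 without SmoM2 replicate 3 and 7 with only the hemisphere arrays in the fit, and that of falls was 1 without wild type replicate 2 or SmoM2 replicate 1 or 2.

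Of 46 replication genes measured, 17 rose and 0 fell, with a median difference of 0.24 and none at 2-fold. Cdc6, a loader of the MCM helicase, rose by 0.59 ± 0.11, and the helicase subunits Mcm3, Mcm4 and Mcm6 by 0.56 ± 0.10, 0.58 ± 0.11 and 0.54 ± 0.12. The DNA polymerase subunit Pola2 rose by 0.63 ± 0.12, a call that ended when its probe sets were averaged. This count rests on the array set: it was 8 without wild type replicate 2 or with only the hemisphere arrays in the fit, and 9 to 11 without each SmoM2 array in turn. Of 39 mitosis genes 1 rose, Kif2c, a mitotic kinesin (0.48 ± 0.15, adjusted p = 0.0449, named after its value was seen, a call that ended in 13 of 22 alternative fits); the count was 10 without wild type replicate 1. Mki67, a marker of cycling cells, was at 11.64, 11.55 and 11.49 in wild type and 11.83, 11.81 and 11.76 in SmoM2, a difference of 0.24 ± 0.10 with a 95% interval of 0.03 to 0.45 that did not pass (adjusted p = 0.111).

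Of 42 ribosome biogenesis genes 12 rose and 0 fell (median 0.31). They were led by Polr1a, the catalytic subunit of the polymerase that transcribes ribosomal RNA, which was at 5.99, 5.69 and 5.93 in wild type and 6.79, 6.89 and 6.63 in SmoM2. Nolc1 and Nop56, nucleolar proteins, rose by 0.71 ± 0.12 and 0.60 ± 0.12. The count ranged from 7 without SmoM2 replicate 1 to 22 without wild type replicate 1. In the p53 and apoptosis list 6 of 28 rose and 5 fell. Besides Bcl2, the receptor Eda2r rose by 0.84 ± 0.13, and Trp53inp1, a p53-induced protein, fell by 0.65 ± 0.11. Without wild type replicate 3 the counts of rises and falls were 3 and 2, and without SmoM2 replicate 1 they were 3 and 1.

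Transcription factors of the granule cell lineage changed in both directions, 3 of 29 rising and 7 falling (median -0.18, with 4 falling without SmoM2 replicate 3). Over all genes 7.62% rose and 7.18% fell, so the rises of this list were near the share of all genes. Atoh1, which keeps progenitors in their dividing state, was at 8.27, 8.18 and 8.02 in wild type and 9.09, 8.75 and 9.10 in SmoM2 (0.82 ± 0.12, adjusted p = 0.000363). Neurod1, a driver of granule neuron differentiation, was at 12.87, 13.02 and 13.04 in wild type and 12.18, 12.12 and 12.08 in SmoM2 and fell by 0.85 ± 0.09. Both changes were larger than the spread within groups. Neurod2, which acts later in the same course (-0.86), Pax6, a factor of progenitors and young neurons (-0.55), and Mab21l1 (-0.60) fell. Pou3f2 and Nfia rose by 0.80 ± 0.10 and 0.41 ± 0.09. Zic1, a granule lineage factor, differed by -0.24 (95% interval -0.45 to -0.02, adjusted p = 0.125).

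Of 27 genes of the neuronal cytoskeleton 12 fell and 1 rose, with a median of -0.39 against -0.05 over all genes. Nefl, the light neurofilament, was at 7.31, 7.79 and 7.84 in wild type and 6.06, 6.47 and 6.23 in SmoM2. Stmn2, a microtubule regulator of growing axons, was at 11.83, 11.70 and 11.79 in wild type and 10.32, 10.61 and 10.29 in SmoM2. Gap43, a growth cone protein, fell by 0.93 ± 0.11, and so fell the neuronal tubulin Tubb3 (-0.86), the microtubule-binding Mapt (-0.85) and Dpysl3 (-0.92). Dpysl4, of the same family as Dpysl3, was the member that rose (1.92 ± 0.14, adjusted p = 6.98e-07).

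Of 45 ion channel genes 15 fell and 1 rose (median -0.31); the rise was that of Cacng2 (0.50), named after its value was seen, a call that ended in 7 of 22 alternative fits. Kcna1, a potassium channel of axons, was at 6.69, 7.28 and 7.83 in wild type and 5.40, 6.02 and 5.46 in SmoM2. The potassium channels Kcnk10 (-1.15), Kcnj3 (-1.09) and Kcnk1 (-0.97) fell too. Synapse genes fell in 17 and rose in 7 of 56 cases (median -0.23), and the falls numbered 10 without SmoM2 replicate 1 and 11 without SmoM2 replicate 3. Besides Slc17a6, the calcium sensor of release Syt1 (-1.33), the vesicle protein Sv2a (-1.01) and the active zone protein Rims1 (-0.76) fell. The rises were large: Syt13, of the synaptotagmin family, was at 5.39, 5.76 and 6.17 in wild type and 8.78, 8.83 and 8.57 in SmoM2, the release regulator Cplx2 rose by 1.90 ± 0.16 and the glutamate receptor subunit Gria3 by 1.14 ± 0.14. Nptx1 and Cbln4, described above, complete the largest rises of this list.

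**Figure D3:**
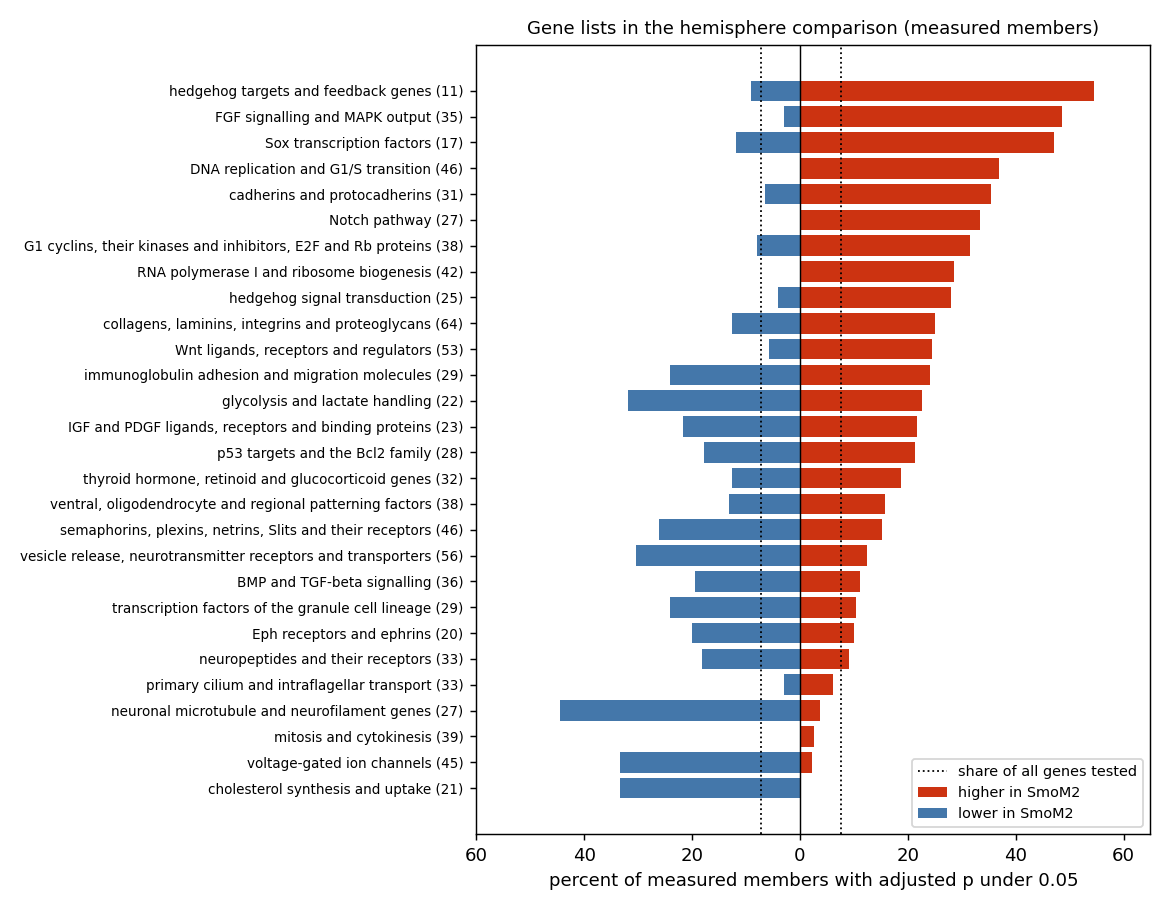
Percent of the measured members of each pathway list, without the cell type marker lists, with an adjusted p under 0.05, higher in SmoM2 to one side and lower to the other. Over all 18193 genes 7.62% were higher and 7.18% lower; hedgehog target, FGF and Sox genes reach furthest on the higher side among these lists, and neuronal microtubule and neurofilament genes on the lower side.

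Adhesion and migration genes split evenly, 7 of 29 rising and 7 falling. Axonal adhesion molecules of the contactin and L1 families were among the falls: Cntn1, which was at 10.04, 10.04 and 9.96 in wild type and 8.34, 8.99 and 8.56 in SmoM2, fell by 1.38 ± 0.14, with falls also in Nfasc (-1.20), L1cam (-1.13) and Cntn2 (-0.90). The reelin receptors rose: Vldlr was at 7.87, 7.84 and 7.94 in wild type and 9.46, 9.73 and 9.41 in SmoM2, and Lrp8 rose by 1.47 ± 0.13. Ntrk3, the receptor for neurotrophin 3, rose by 2.02 ± 0.14. Cxcr4, which holds progenitors at the surface through the meningeal chemokine Cxcl12, rose by 1.29 ± 0.13, while Cxcl12 fell by 0.59 ± 0.13, a call that ended with its probe sets averaged. Of 31 cadherins and protocadherins 11 rose and 2 fell. Cdh20 was at 6.21, 6.09 and 5.76 in wild type and 8.27, 8.22 and 8.34 in SmoM2, and Pcdh18, Pcdh7 and Pcdh19 rose by 1.73 ± 0.13, 1.25 ± 0.21 and 1.18 ± 0.15.

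Among 46 guidance genes 7 rose and 12 fell, the falls numbering 6 without wild type replicate 2 and 7 without SmoM2 replicate 1 or 3. Unc5c and Unc5b, receptors for repulsion by netrin, fell (-1.70 and -0.90), whereas Robo2, a receptor for Slit proteins, rose by 0.85 ± 0.16 and its ligand Slit3 by 0.78 ± 0.15. Of 20 Eph receptors and ephrins 2 rose, near the 7.62% share of all genes, and 4 fell (2 without SmoM2 replicate 1 or 2), against 7.18% of all genes. Epha5 was at 4.06, 3.59 and 3.60 in wild type and 6.31, 6.32 and 5.98 in SmoM2, and Epha8 rose by 2.32 ± 0.21. Ephb1 (-0.84) and Epha3 (-0.77) fell. Of 64 matrix and integrin genes 16 rose and 8 fell; the rises numbered 8 without SmoM2 replicate 2 and 9 without SmoM2 replicate 3 or wild type replicate 2, and the falls 5 without SmoM2 replicate 3. The laminin chains Lama5 and Lama1 rose by 1.62 ± 0.13 and 0.83 ± 0.12, the collagen Col11a1 by 1.34 ± 0.12 and the integrin Itga9 by 1.29 ± 0.17. Tnr, a matrix protein of nerve tissue, and the proteoglycan Ogn fell (-1.27 and -2.20).

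Of 35 measured ligands, receptors and feedback genes of the FGF and MAPK cascade, 17 rose and 1 fell (median 0.28). The count of rises ranged from 14 to 18 over the alternatives run, and that of falls was 2 without wild type replicate 1. Etv5, an ETS factor switched on by FGF signalling, was at 6.86, 6.08 and 6.73 in wild type and 9.40, 9.48 and 9.43 in SmoM2, a 7.35-fold rise (adjusted p = 8.18e-08). The inhibitors Spry4 and Spry2 rose by 1.67 ± 0.18 and 0.94 ± 0.13, Spred1 by 0.89 ± 0.11 and the ERK phosphatase Dusp6 by 1.07 ± 0.12. The receptor Fgfr1 rose by 0.92 ± 0.20. The ligand Fgf5 went from 3.23, 3.22 and 3.31 in wild type, near the lower quartile, to 4.82, 5.32 and 5.13 in SmoM2. Fgf11, an intracellular member of the family, fell by 0.78 ± 0.16.

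Of 27 Notch pathway genes 9 rose and 0 fell (median 0.14). The ligand Jag1 was at 7.19, 7.04 and 6.79 in wild type and 9.43, 9.09 and 9.49 in SmoM2. The receptors Notch1 and Notch2 rose by 1.47 ± 0.19 and 1.11 ± 0.12, and the ligands Dll1 and Dll3, the latter an inhibitory one, by 1.00 ± 0.15 and 1.10 ± 0.10. Among 23 genes of insulin-like and platelet-derived growth factors 5 rose and 5 fell (3 without wild type replicate 3 or SmoM2 replicate 1). Pdgfa, the ligand of a receptor found on oligodendrocyte precursors, was at 6.29, 6.14 and 6.65 in wild type and 8.66, 9.18 and 8.88 in SmoM2, and Igfbp3 and the receptor adaptor Irs1 rose by 1.63 ± 0.17 and 1.48 ± 0.11. Igfbpl1 fell by 1.14 ± 0.11.

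Of 53 Wnt pathway genes 13 rose (8 without SmoM2 replicate 3) and 3 fell, with a median of -0.08; the falls numbered 0 without wild type replicate 2 and 7 without wild type replicate 1. The secreted activator Rspo1 was at 2.86, 3.33 and 3.03 in wild type and 4.95, 5.08 and 4.91 in SmoM2. Its wild type mean was under the lower quartile of each array, so the size of its rise has no exact meaning. The Rspo1 receptor Lgr5 rose by 1.32 ± 0.18 and the Wnt receptor Fzd1 by 1.53 ± 0.11. Secreted inhibitors rose as well, Sfrp2 by 1.68 ± 0.18 and Wif1 by 1.13 ± 0.15. Of 36 genes of BMP and TGF-beta signalling 4 rose and 7 fell; without SmoM2 replicate 3 these counts were 2 and 2, and the falls numbered 4 without each of wild type replicates 2 and 3 and SmoM2 replicates 1 and 2. Smad3, which carries TGF-beta signals to the nucleus, was at 7.28, 7.10 and 7.25 in wild type and 9.31, 9.60 and 9.34 in SmoM2, and the ligand Bmp5 rose by 1.81 ± 0.13 while Bmp6 fell by 0.64 ± 0.14.

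Several patterning factors that mark other parts of the neural tube rose from low levels. Of 38 measured 6 rose and 5 fell (8 without wild type replicate 1). Foxa2, a factor of the floor plate, was at 4.55, 3.90 and 4.32 in wild type and 6.72, 7.06 and 6.90 in SmoM2. Olig2 and Olig1 are factors of ventral progenitors and the oligodendrocyte lineage. Olig2 was at 5.14, 4.50 and 4.92 in wild type and 6.92, 7.21 and 6.72 in SmoM2, and Olig1 rose by 1.75 ± 0.13. These rises stand beside falls of oligodendrocyte markers on the same arrays. Olig3 and Dbx1, factors of dorsal and intermediate progenitors, rose by 1.48 ± 0.15 and 1.61 ± 0.17. Ptf1a, which specifies inhibitory neurons of the cerebellum, fell by 1.02 ± 0.11, and Pax3 fell by 0.88 ± 0.11.

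Of 17 Sox genes 8 rose and 2 fell (median 0.43; 1 falling without wild type replicate 2 or SmoM2 replicate 2 or 3). Sox1, a factor of neural progenitors, was at 5.59, 5.11 and 6.02 in wild type and 8.56, 8.57 and 8.41 in SmoM2, and Sox18, known from blood vessel development, at 5.62, 5.88 and 6.44 in wild type and 8.66, 8.70 and 8.53 in SmoM2. Sox9 and Sox2, factors of neural stem and glial cells, rose by 1.05 ± 0.11 and 0.93 ± 0.11. Sox10, of the oligodendrocyte lineage, fell by 0.76 ± 0.15. In the hormone and retinoid list 6 of 32 rose (10 without wild type replicate 1) and 4 fell (2 without SmoM2 replicate 1). Besides Crym and Rbp4, the mineralocorticoid receptor Nr3c2 was at 5.20, 5.33 and 5.42 in wild type and 6.93, 7.12 and 7.30 in SmoM2, and Hsd11b2, which inactivates glucocorticoids, rose by 1.17 ± 0.12. Aldh1a1, which makes retinoic acid, fell by 1.25 ± 0.20. Of 33 neuropeptides and receptors 3 rose and 6 fell (3 without SmoM2 replicate 1 and 10 without wild type replicate 1). Over all genes 7.62% rose and 7.18% fell, so the rises of this list were near the share of all genes. Gal rose by 0.65 ± 0.14, while Sst, Penk and the Vip receptor Vipr1 fell (-0.51, -0.65 and -0.77).

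Among 22 genes of glycolysis 5 rose and 7 fell. Hk2, the hexokinase of growing tissue, was at 9.35, 9.30 and 9.29 in wild type and 11.25, 11.43 and 11.20 in SmoM2 (1.98 ± 0.10, adjusted p = 1.73e-08). Tpi1, a later enzyme of the pathway, fell by 1.02 ± 0.11, and Ldhb fell by 0.59 ± 0.11. The rises numbered 1 to 3 without each of 5 hemisphere arrays in turn, all but wild type replicate 1, and the falls 3 without SmoM2 replicate 1. Of 21 cholesterol synthesis genes 0 rose and 7 fell (median -0.23), including Tm7sf2 (-0.70) and Hmgcs1 (-0.51), and the falls numbered 2 without SmoM2 replicate 3 and 4 without SmoM2 replicate 1 or wild type replicate 2.

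Markers of other cell types were present in the preparations. Of 18 oligodendrocyte lineage markers 14 fell and 1 rose (median -1.07); the rise was that of Bcas1 (0.59), named after its value was seen, a call that ended without SmoM2 replicate 2. Mbp, a main protein of myelin, was at 11.98, 12.24 and 12.44 in wild type and 10.51, 11.14 and 10.84 in SmoM2, and Mog, on the outer face of myelin, fell by 1.54 ± 0.24. The list averaged 8.03 to 8.07 on the wild type arrays and 6.85 to 7.36 on the SmoM2 arrays, without overlap. Of 14 microglia markers 10 fell and 0 rose (median -0.80), and the list averaged 5.81 to 6.10 against 5.06 to 5.32. Csf1r, the growth factor receptor of microglia, was at 8.78, 8.74 and 8.75 in wild type and 7.99, 7.82 and 7.19 in SmoM2; Itgam was under the lower quartile of each array. GABAergic neuron markers fell in 6 of 9 cases and rose in 1, Pvalb (0.78); the falls (3 without wild type replicate 2 or SmoM2 replicate 1 or 3) were led by Tfap2b (-1.24). The list averaged 6.29 to 6.57 against 5.65 to 6.02. Of 5 unipolar brush cell markers only Eomes passed, while their mean was 6.47 to 6.57 against 6.05 to 6.15 and Lmx1a was under the lower quartile of each array.

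Most other marker lists overlapped between genotypes. Astrocyte and Bergmann glia markers, with 2 of 14 higher (1 without wild type replicate 2 or SmoM2 replicate 3) and 4 lower (1 without SmoM2 replicate 1), averaged 8.59 to 9.04 in wild type and 8.15 to 8.66 in SmoM2. Endothelial and pericyte markers, with 0 of 15 higher and 2 lower, averaged 6.35 to 7.08, the top value being wild type replicate 3, and 6.32 to 6.57. Meningeal markers, with 2 of 10 higher and 4 lower (1 without SmoM2 replicate 1), averaged 7.54 to 7.83 and 7.36 to 7.63. The rises among them numbered 1 without wild type replicate 2 or SmoM2 replicate 2 or 3. Purkinje cell markers, with 1 of 10 higher and 1 lower (4 without SmoM2 replicate 2 and 2 without wild type replicate 1), averaged 5.37 to 5.54 and 5.15 to 5.52. Red blood cell markers, 0 of 3 passing, stayed low on every array but did not overlap, at 3.94 to 4.19 and 3.74 to 3.82. The part that these cell types have in the falls of neuronal, synaptic and channel genes was not tested, and Slc32a1, Lhx1, Ptf1a, Gdf10, Ogn, Igf2 and Sox10 each stand on a marker list and another list.

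**Figure D4:**
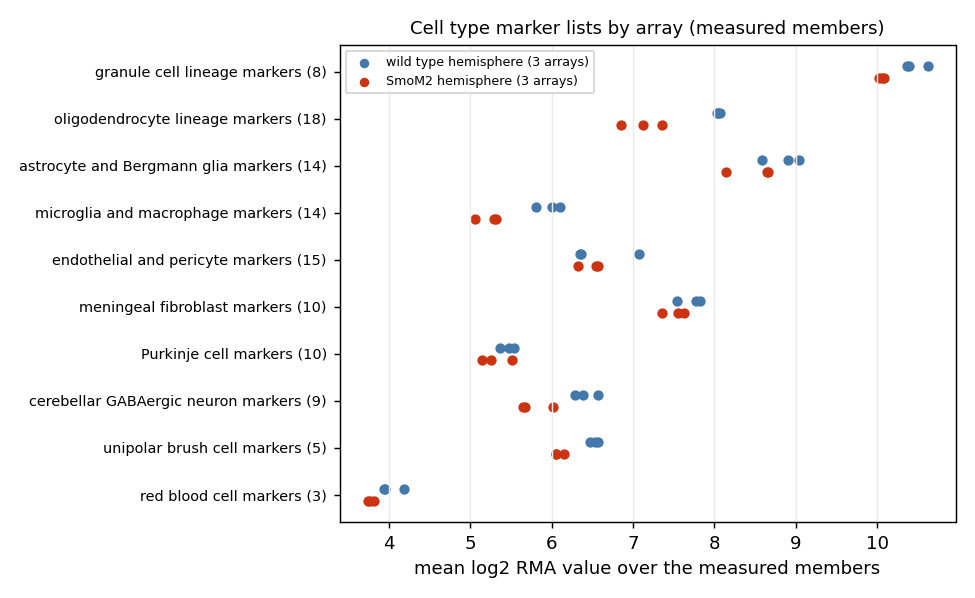
Mean log2 level of each marker list on each hemisphere array, wild type and SmoM2 as separate points. Oligodendrocyte, microglia, GABAergic, unipolar brush cell, red blood cell and granule lineage lists lie lower on all 3 SmoM2 arrays, while astroglial, endothelial, meningeal and Purkinje lists overlap.

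The vermis served to ask where the hemisphere response differs. Of the 405 genes changed at least 2-fold in the hemisphere, 394 also passed in the vermis in the same direction, 11 did not pass there and 0 had the opposite sign. Over all calls, 1814 genes passed in both regions, all 1814 in the same direction, which is 67.3% of hemisphere calls and 58.6% of the 3096 vermis calls (17.0% of genes). The difference between the regional effects was tested directly by limma's interaction term. It passed for 0 genes (0.0%, smallest adjusted p = 1). An unadjusted p under 0.05 was found for 564 of 18193 genes, fewer than this threshold gives on average when no gene differs. The sources used here do not say whether the same mice gave both regions. Same-numbered arrays of a genotype had a consensus correlation of 0.359 across regions. With them as a random block, the interaction term again passed for 0 genes. So no hemisphere effect can be called particular to the hemisphere at 3 arrays per group.

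The genes with the smallest unadjusted interaction p were Rflna, Matn4, Adipoq, Dbx1 and Lfng. Rflna, an actin-organizing protein, rose by 1.04 ± 0.12 in the hemisphere and 1.93 in the vermis. Dbx1 rose by 1.61 ± 0.17 and 2.77, a difference between regions of -1.17; without SmoM2 hemisphere replicate 3 it was -1.41 with an adjusted p of 0.0372, the 1 interaction call in any fit that left out an array. Matn4, a matrix protein, and Adipoq, known as a hormone of fat tissue, differed by -0.54 and -1.22 in the hemisphere and by -1.35 and -2.09 in the vermis. Lfng, which modifies Notch receptors, rose by 0.64 ± 0.11 in the hemisphere (a call that ended when its probe sets were averaged), with 1.39 in the vermis. By value alone, Olig1 (1.75 and 1.10), Olig2 (2.10 and 1.47), Dll3 (1.10 and 0.45) and Crym (3.61 and 2.95) had the larger difference in the hemisphere, and Foxa2 (2.64 and 3.80) in the vermis. None of these passed the interaction test (adjusted p = 1 for each).

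**Figure D5:**
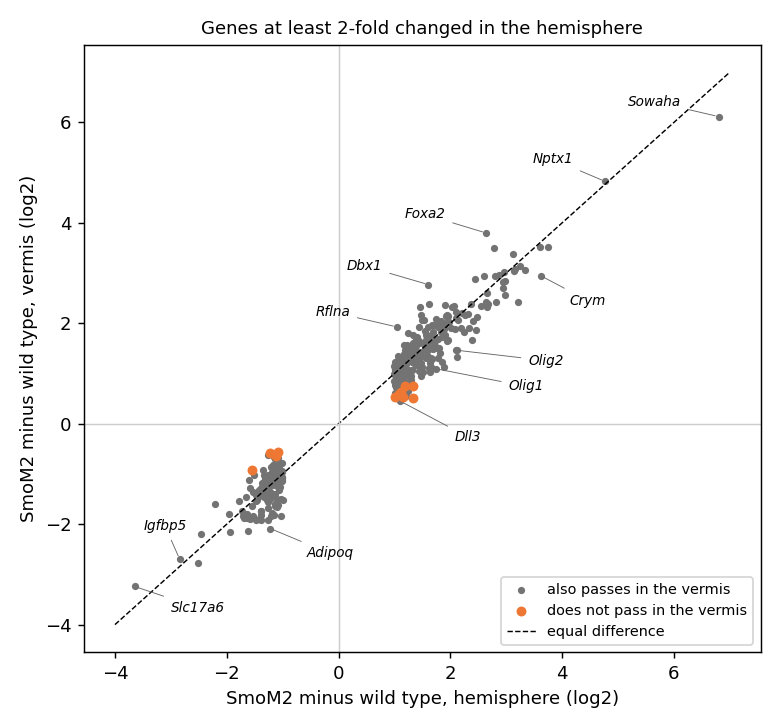
Log2 difference between SmoM2 and wild type in the hemisphere (x axis) and vermis (y axis) for the 405 genes that passed with at least a 2-fold change in the hemisphere; orange points are the 11 that did not pass in the vermis and the dashed line marks equal differences. Every point has the same sign in both regions.

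Where a gene is read by several probe sets, most told the same direction. Of the genes named here that passed, 116 had further probe sets. Of these 230 further probe sets 215 differed in the direction of the kept one, and 173 did so without overlap between genotypes. They read the same RNA, and many of the genes were named because their kept probe set passed without overlap. On the kept probe sets of all genes, 31.7% lay apart in either direction. The agreement of further probe sets over all genes was not computed, so these counts only describe the named genes.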

How the data were processed

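The deposited table holds log2 expression values per probe set, made by the authors with Partek and RMA per the submitters' processing notes; the sources used here give no versions. RMA subtracts background, normalizes by quantiles and summarises the probes of a set. It leaves no detection call, so differences near the lowest values are compressed. Total RNA was hybridised as biotin-labelled cRNA to Affymetrix 3' arrays, per the labels' protocols. Of 45101 probe sets (64 of them controls), 34958 had 1 gene symbol in the platform annotation, 932 several and 9211 none. Each of 18193 genes was represented by its probe set of highest mean (all 12 arrays), and values were not normalized again.

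The test was limma 3.58.1 under R 4.3.3, through lmFit and eBayes, two-sided, in 1 model with a mean for each of 4 groups and 8 residual degrees of freedom. Passing meant an adjusted p (Benjamini-Hochberg, all genes) under 0.05. The script was tested on simulated data. A naming rule took genes that passed also without each of the 6 hemisphere arrays and whose arrays did not overlap between genotypes. Their mean in the higher group was at least 6. By size of change it took 12 each way over all genes and up to 4 each way from each of 37 gene lists. A set of pathway and lineage genes and the 5 smallest interaction p were added, and not all of these are named. Other genes with values here, such as Rspo1, Fgf5, Slit3, Olig3, Ogn, Dll1, Tubb3 and Mapt, were named outside this rule. They were chosen with their values known. The members and lists were chosen with earlier results of these data known. Promoters and gene names come from RefSeq (GRCm38.p6); 3741 tested genes had no promoter entry. Only 3 arrays per group limit the precision.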

Additional observations from a re-analysis of the deposited data

How the results depend on the processing

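Of the genes named with values or lists, 170 passed; all 170 kept their direction in the 22 alternative fits run and 155 also passed in each, the exceptions being Gli2, Dhh, Kif2c, Kif3a, Bbs4, Tulp3, Cacng2, Bcas1, Igf2, Gdf10, Slc32a1, Ccnd3, Cxcl12, Lfng and Pola2. Many of the 170 genes were named because they passed without each hemisphere array in turn. For them, passing in those fits was fixed by the choice, so the 155 do not describe calls in general. Of all 2694 genes that passed, 1289 also passed without each hemisphere array in turn. The count of 2694 genes (1387 higher, 1307 lower) was 1753 with only the hemisphere arrays in the fit (939 higher, 814 lower). Leaving out 1 array at a time gave 1633 (without SmoM2 hemisphere replicate 1) to 4276 (without wild type hemisphere replicate 1) genes, 891 to 2219 higher and 714 to 2057 lower, and 0 to 1 genes for the difference between regions. Without SmoM2 hemisphere replicate 3 it was 1704; leaving out wild type hemisphere replicate 2 gave 1801 and replicate 3 gave 2092. The cause was not tested, beyond the smaller number of arrays.

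Other normalization, filters and moderation gave 1954 to 2886 genes, and array quality weights gave 3136. Centring on medians gave 1408 higher and 1162 lower, and testing only genes with a mean of at least 5 gave 1472 and 1068. Replicate numbers did not pair wild type with SmoM2 hemisphere arrays. Deviations of these same-numbered arrays correlated at -0.22 to -0.08, and the replicate block gave 3253 genes. Within a genotype, same-numbered hemisphere and vermis arrays had a consensus correlation of 0.359. Treating them as a random block gave 2737 genes. Of 36 list counts of at least 5 genes, 16 stayed within 1.5 times under every alternative. Probe sets near the lower quartile limit how far a difference can be read.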
